A study of Saccharomyces cerevisiae with 7 samples.

Results

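Histones are the proteins on which DNA is wound in the nucleus, and 10 genes of budding yeast, Saccharomyces cerevisiae, that encode them are described here. They are HTA1 and HTA2 for H2A, HTB1 and HTB2 for H2B, HHT1 and HHT2 for H3, HHF1 and HHF2 for H4, HTZ1 for the H2A variant H2A.Z, and HHO1 for the linker histone H1. Members were picked by their symbol in the annotation of the array platform, a rule that itself uses no measured values. Of the 10, 9 had a probe set and were measured, out of 5449 S. cerevisiae genes on the array. HHF2 had no probe set under its own symbol and was left out. HTA2 had 2 probe sets and each of the other 8 genes had 1.

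The core histones of a nucleosome are made mainly in S phase, when the genome doubles and new DNA has to be packed. In budding yeast their genes form divergent pairs, in which an H2A gene faces an H2B gene, or an H3 gene an H4 gene, across a shared promoter, and the annotation places all 8 core genes in 4 such pairs: HTA1 with HTB1, HTA2 with HTB2, HHT1 with HHF1, and HHT2 with HHF2. Activators such as Spt10 and Spt21 drive these promoters in S phase, and the HIR complex and the chaperone Asf1 repress most of them outside it. HTZ1 and HHO1 lie apart from the pairs. H2A.Z replaces H2A in nucleosomes beside promoters, where the SWR1 complex inserts it, and Hho1 binds DNA between nucleosomes.

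RNA was taken from 4 groups of cells and put on 7 one-colour arrays. Wild type cells, strain YK700, were MATa and carried ade2-1, trp1-1, can1-100, the leu2-3, 112 and his3-11,15 alleles, and ura3-52, and were GAL and psi+. There was 1 array of wild type labelled 25C and there were 2 of wild type at 37C. The scc2-4 strain, Y4251, was MATa with scc2-4, Scc1-Pk9::TRP1 and Sth1-9myc::URA3 (2 arrays at 37C). The sth1-3 strain, Y4343, was MATα with the sth1-3ts allele and Scc2-Pk9::TRP1 (2 arrays at 37C). Scc2 belongs to the loader that places cohesin on chromosomes, and Sth1 is the motor of RSC, a remodeller that clears nucleosomes from promoters. Both alleles are temperature-sensitive. Cells were in YP medium with 2% glucose (OD600 0.25) before 2 h at 37C. The labels give this for all samples, the 25C one included, so only its title, source and description say 25C. The mutants differ from wild type in their protein tags and markers, and sth1-3 also in mating type, so these cannot be told apart from the effect of either allele. In addition, RNA of a whole culture cannot tell fewer cells in S phase from less histone RNA per cell.

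The histone probe sets were mostly dim. An array's background was set at the 95th percentile of its probe sets for another yeast, Schizosaccharomyces pombe, which was 9.94 to 10.07 (log2 signal), and 8.06% to 12.9% of S. cerevisiae genes exceeded it. The arrays also form 2 technical sets by their bacterial hybridisation controls. The set of 3 (mean of the controls 12.3 to 12.6) holds wild type 25C and replicate 1 of each mutant, and the set of 4 (11.6 to 11.8) holds both wild type 37C arrays and replicate 2 of each mutant. The excess of the 3' over the 5' probe set of 25S ribosomal RNA was 3.03 to 4.16 in the set of 3 and 0.30 to 0.69 in the set of 4. The 5.8S ribosomal RNA lay at 7.50 to 8.40 in the set of 3 and at 8.92 (sth1-3 replicate 2) to 12.98 in the set of 4. Each mutant is thus split between the sets, and each wild type group lies in 1 of them. Mating type could not be checked, because 7 of 7 a-specific and 5 of 6 alpha-specific genes did not exceed background on any array. The remaining alpha-specific gene, HMLALPHA1, exceeded it on sth1-3 replicate 1 (10.27) but not on sth1-3 replicate 2 (8.41).

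HTA1 encodes H2A. Its log2 signal was 9.92 in wild type at 25C, 8.88 and 8.66 in wild type at 37C, 9.64 and 8.87 in scc2-4, and 9.70 and 9.19 in sth1-3 (replicates 1 and 2 in this order, here and for the other genes). It stayed under background on every array, by as little as 0.019 on the 25C array. The arrays of the set of 3, at 9.64 to 9.92, were all above those of the set of 4, at 8.66 to 9.19. Its divergent partner HTB1, for H2B, measured 7.95 at 25C, 7.30 and 7.02 in wild type at 37C, 7.84 and 7.003 in scc2-4, and 8.51 and 7.26 in sth1-3. The sets were separated in the same way (7.84 to 8.51 and 7.003 to 7.30), and HTB1 was also under background throughout.

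The HTA2 probe sets disagreed. One carries the identifier suffix that marks probes matching several transcripts, and it represents HTA2 here since it was brighter on average. It measured 8.69 at 25C, 6.91 and 6.70 in wild type at 37C, 8.73 and 7.04 in scc2-4, and 9.53 and 7.23 in sth1-3. The means of the sets of 3 and 4 differed by 2.01 log2 units. H2A from HTA1 and HTA2 is nearly the same protein, and the files do not say which transcripts the shared probes match, so these values may hold signal of both genes. The other probe set of HTA2 was flat, at 7.46 at 25C, 7.27 and 7.52 in wild type at 37C, 7.46 and 7.37 in scc2-4, and 7.39 and 7.40 in sth1-3. HTB2, the partner of HTA2, measured 7.32 at 25C, 7.55 and 7.49 in wild type at 37C, 7.09 and 7.02 in scc2-4, and 7.55 and 7.12 in sth1-3. Both scc2-4 arrays lay below both wild type 37C arrays for HTB2, and the sets of arrays overlapped. HTA2 and HTB2 were under background on all arrays.

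HHF1, for H4, had the largest difference between the means of the 2 sets of arrays among the 9 genes (2.25 log2 units). It measured 10.31 at 25C, 7.77 and 7.74 in wild type at 37C, 10.19 and 7.73 in scc2-4, and 10.14 and 8.65 in sth1-3. It exceeded background on the 3 arrays of the set of 3 and on none of the set of 4. Within the set of 4, sth1-3 replicate 2 stood above the other 3 arrays, which lay within 7.73 to 7.77. HHF1, too, was read by a probe set marked as matching several transcripts, and HHF1 and HHF2 encode the same H4 protein, so a part from HHF2 cannot be told apart.

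The H3 genes moved less and were under background on every array. HHT1, which faces HHF1, measured 8.89 at 25C, 7.99 and 8.60 in wild type at 37C, 8.46 and 8.30 in scc2-4, and 8.80 and 8.38 in sth1-3, so the groups at 37C overlapped. HHT2, which faces HHF2, measured 8.55 at 25C, 8.07 and 8.41 in wild type at 37C, 8.83 and 8.13 in scc2-4, and 8.72 and 8.89 in sth1-3. Both sth1-3 arrays were above both wild type 37C arrays for HHT2, and its sets of arrays overlapped.

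The variant and linker histones behaved unlike each other. HTZ1, for H2A.Z, measured 8.85 at 25C, 8.25 and 8.41 in wild type at 37C, 9.30 and 7.84 in scc2-4, and 9.02 and 8.32 in sth1-3. Its arrays of the set of 3 were all above those of the set of 4, none passed background, and the scc2-4 replicates bracketed every other array. HHO1 measured 9.95 at 25C, 9.80 and 10.12 in wild type at 37C, 9.83 and 9.95 in scc2-4, and 10.30 and 10.08 in sth1-3. It lay at most 0.28 log2 units from background in either direction and exceeded it on 4 arrays: the 25C array, wild type 37C replicate 2 and both sth1-3 arrays. Its sets of arrays overlapped, at 9.83 to 10.30 and 9.80 to 10.12.

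**Figure D1:**
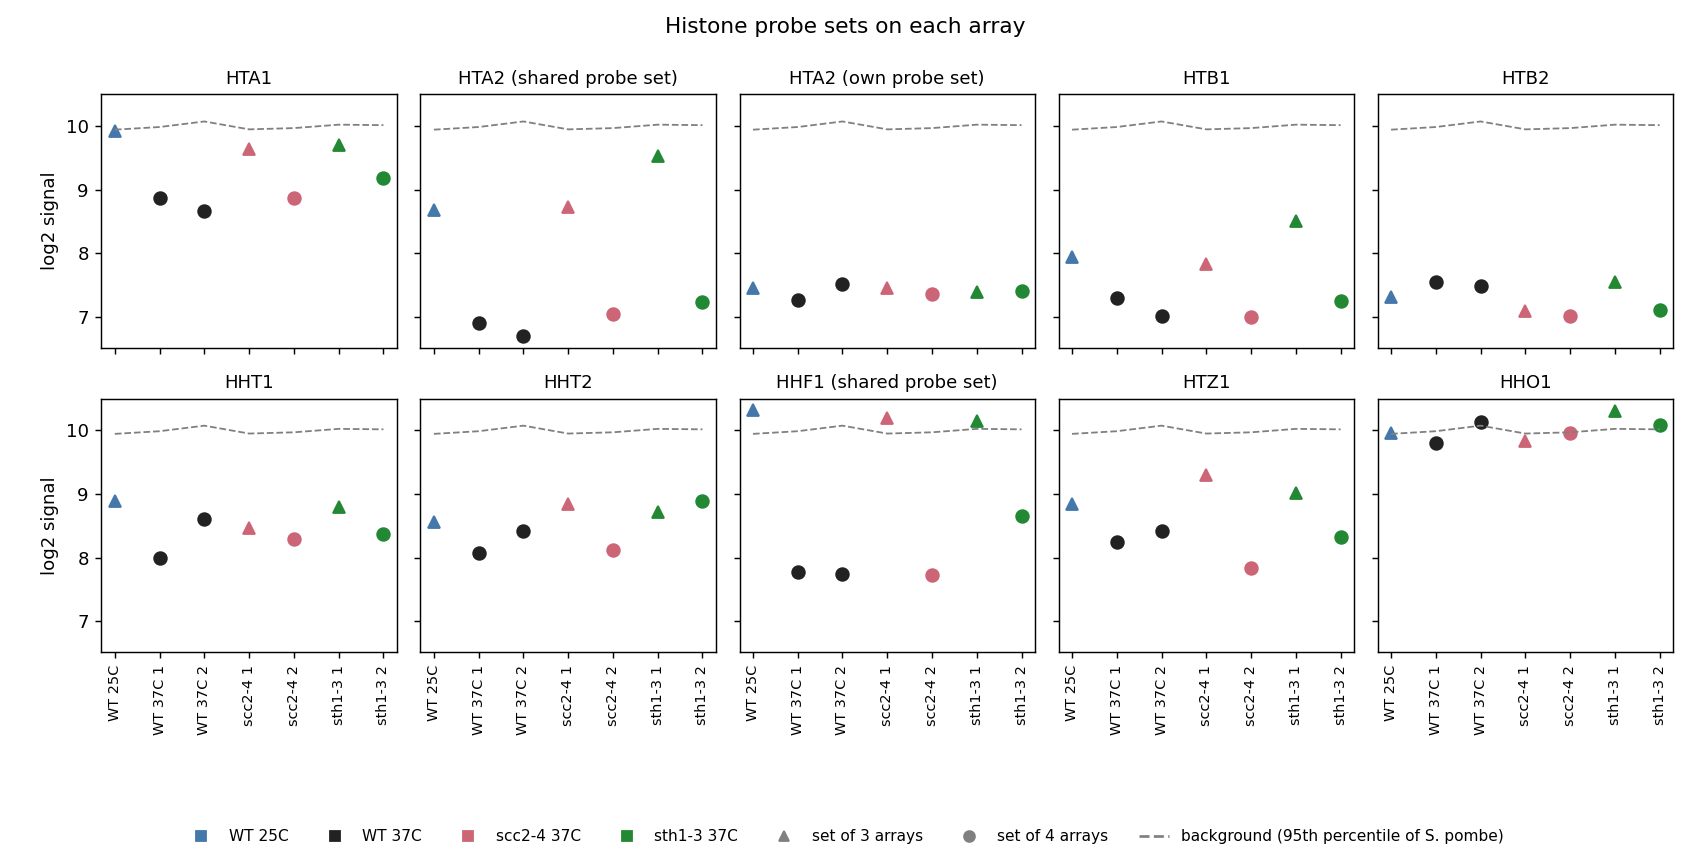
Log2 signal of the 10 histone probe sets (y axis) on the 7 arrays (x axis), 1 point per array; colours give the group, triangles the set of 3 arrays, circles the set of 4, and the dashed line each array's background. HHF1 crosses the background on the triangles only (10.14 to 10.31), while the own probe set of HTA2 stays between 7.27 and 7.52.

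The first comparison asks which transcripts depend on the cohesin loader at 37C. In scc2-4, 7 of the 9 histone genes had higher means than in wild type at 37C and 2 had lower ones, with a median log2 difference of 0.24, against -0.0051 over all genes, of which 49.5% were higher. HHF1 led with 8.96 ± 1.74 in scc2-4 and 7.75 ± 0.02 in wild type (mean ± SD, n = 2 each, log2 signal), a difference of 1.21 (95% confidence interval -0.56 to 2.97, limma). HTA2 followed with a difference of 1.08 (7.89 ± 1.19 against 6.80 ± 0.15, interval -0.67 to 2.84). HTB2 had 7.05 ± 0.05 and 7.52 ± 0.05, a difference of -0.46 (interval -1.20 to 0.27). No histone gene was called (adjusted p = 0.998 for each, limma with Benjamini-Hochberg adjustment over all genes). At this threshold of 0.05 limma called 0 of the 5449 genes (0%), and at an unadjusted p under 0.05 it called 1.25% of them and 0 of the 9 histone genes. Without overlap between the arrays, 1 histone gene was higher (HTA2, against 15.0% of all genes) and 1 lower (HTB2, against 14.1%). HTA2 counts by its shared probe set only. Its own probe set overlapped, at 7.46 and 7.37 in scc2-4 against 7.27 and 7.52 in wild type. HHF1 did not count here, since scc2-4 replicate 2 lay at 7.73, below both wild type arrays. Within the set of 4 the median over the histone genes was -0.026, with 3 of 9 higher, and replicate 2 differed from the wild type mean by -0.026 for HHF1 and 0.24 for HTA2. With the array set as a term in the fit the median was -0.061.

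The second comparison asks the same of RSC. In sth1-3, 8 of the 9 histone genes had higher means than in wild type at 37C, all but HTB2, with a median difference of 0.57 against 0.03 over all genes, of which 53.0% were higher. HHF1 measured 9.39 ± 1.06 in sth1-3 against 7.75 ± 0.02, a difference of 1.64 (interval -0.13 to 3.41). HTA2 measured 8.38 ± 1.63 against 6.80 ± 0.15, a difference of 1.58 (interval -0.18 to 3.33). The differences were 0.72 for HTB1 (interval -0.38 to 1.83), 0.67 for HTA1 (-0.20 to 1.55) and 0.57 for HHT2 (-0.26 to 1.39). No histone gene was called (lowest adjusted p = 0.824, limma). Over all genes 0 were called (0%), and an unadjusted p under 0.05 was found for 3.78% of genes and for 0 of the 9 histone genes. Without overlap between the arrays, 4 histone genes were higher (HTA1, HTA2, HHT2 and HHF1), against 18.0% of all genes, and 0 were lower, against 18.8%. HTA2 counts by its shared probe set, which may also read HTA1. Its own probe set overlapped, at 7.39 and 7.40 in sth1-3 against 7.27 and 7.52 in wild type. Within the set of 4 the median was 0.12 with 7 of 9 higher, against -0.06 over all genes with 43.2% higher. There sth1-3 replicate 2 exceeded the wild type mean by 0.89 for HHF1, 0.65 for HHT2, 0.43 for HTA2, 0.42 for HTA1 and 0.10 for HTB1, and lay below it by 0.40 for HTB2 (a difference of -0.40). That array's 5.8S ribosomal RNA, at 8.92, was low as in the set of 3, and the part of this in the histone values was not tested. Both mutants were set against the same wild type arrays, so the comparisons of scc2-4 and sth1-3 with wild type are not independent.

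**Figure D2:**
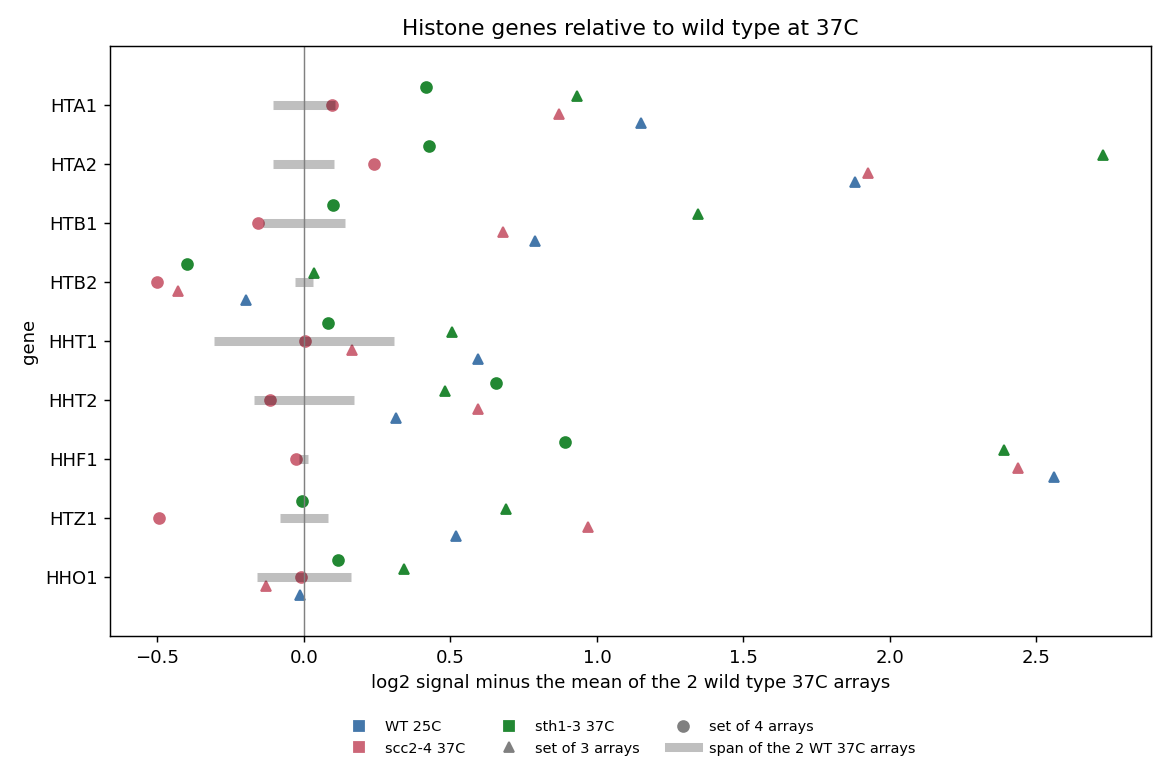
Log2 signal of each histone gene on 5 arrays minus the mean of the 2 wild type 37C arrays (x axis), by gene (y axis); colours give the group, triangles the set of 3 arrays and circles the set of 4, and the grey bars span the wild type 37C arrays. For HHF1 the triangles lie at 2.39 to 2.56 and the circles at -0.026 for scc2-4 and 0.89 for sth1-3.

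Each mutant has 1 array in either set, so the mutants can also be compared within sets. They differ from each other in tags, markers and mating type as well. All 9 histone genes had higher means in sth1-3 than in scc2-4, with a median difference of 0.30 against 0.02 over all genes, of which 52.8% were higher. The differences ranged from 0.10 for HTZ1 (interval -1.05 to 1.25) to 0.50 for HTA2 (-1.26 to 2.25), and HHF1 differed by 0.43 (-1.33 to 2.20). In the set of 4, 9 of 9 were higher in sth1-3 (median 0.26), against 45.5% of all genes (median -0.03). In the set of 3, 6 of 9 were (median 0.34), against 55.5% of all genes (median 0.08). In both sets 6 of 9 were higher (HTA1, HTA2, HTB1, HTB2, HHT1 and HHO1) and 0 lower, against 23.9% of all genes higher in both. HTA2 stands in these means and counts by its shared probe set, which may also read HTA1. Its own probe set was lower in sth1-3 in the set of 3 (7.39 against 7.46) and higher in the set of 4 (7.40 against 7.37). HHF1 went from 0.92 in the set of 4 to -0.048 in the set of 3, and HTZ1 from 0.49 to -0.28. Each of these within-set values sets 1 array against 1, with no test. In the fit over all arrays no histone gene was called (adjusted p = 1.00 for each, limma), 0 of all genes were (0%), and 0.385% of all genes and 0 histone genes had an unadjusted p under 0.05. Without overlap, 2 histone genes were higher in sth1-3 (HTB2 and HHO1), against 8.44% of all genes, and 0 lower, against 9.62%. HHO1 measured 10.19 ± 0.16 in sth1-3 and 9.89 ± 0.08 in scc2-4, a difference of 0.30 (interval -0.43 to 1.03), with an adjusted p of 1.00 (limma). The fold of the means was at least 1.18, with background standing in for scc2-4, and is no lower bound on the effect. Leaving out scc2-4 replicate 2 or sth1-3 replicate 1, which unbalances the sets, brought the median to -0.026 or -0.066. The 25S ribosomal RNA measure above was also wider in sth1-3 in both sets (4.16 against 3.03, and 0.69 against 0.31), and its part in these differences was not tested.

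In wild type cells the comparison of 37C with 25C asks what the temperature shift does, with 1 array at 25C. Of the 9 histone genes, 7 had lower means at 37C, with a median difference of -0.59 against -0.17 over all genes, of which 39.9% were higher. HHF1 was 7.75 ± 0.02 at 37C (n = 2) and 10.31 at 25C, at least 1.22-fold higher at 25C, and the log2 values differed by -2.56 (interval -4.72 to -0.40). HTA2 differed by -1.88 (-4.03 to 0.27), HTA1 by -1.15 (-2.22 to -0.08) and HTB1 by -0.79 (-2.14 to 0.56). No histone gene was called (adjusted p = 0.449 for HHF1 and HTA1, limma), and 0 of all genes were (0%). At an unadjusted p under 0.05 there were 2 histone genes, HHF1 and HTA1, and 10.2% of all genes. Both wild type 37C arrays were below the 25C array for 7 histone genes, against 50.1% of all genes, and above it for HTB2, against 31.1%. HTA2 counts among the 7 by its shared probe set. Its own probe set lay at 7.27 and 7.52 at 37C, on either side of 7.46 at 25C. The 25C array and the 37C arrays lie in different technical sets. When the fit also held the array set, with the mutants as the link between sets, the median became 0.07, HHF1 -0.58 and HTA1 -0.51. Centring each array on its median gene moved the median over all genes from -0.17 to 0.01 and that over the histone genes to -0.41.

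Technical set and signal moved together for 5 of the 9 histone genes, also where strain and temperature were the same. Between replicates 1 and 2 of scc2-4, which fall in different sets, HHF1 differed by 2.46 log2 units, HTA2 by 1.69, HTZ1 by 1.47, HTB1 by 0.84 and HTA1 by 0.77, with replicate 1 higher. Between those of sth1-3, HTA2 differed by 2.30, HHF1 by 1.498, HTB1 by 1.25, HTZ1 by 0.70 and HTA1 by 0.51, again with replicate 1 higher. The wild type 37C replicates, both in the set of 4, differed by 0.03 for HHF1, 0.21 for HTA2, 0.28 for HTB1, -0.16 for HTZ1 and 0.21 for HTA1. These 5 genes did not overlap between the sets, so replicate 1 had to be higher in each mutant. The other genes were HTB2, HHT1, HHT2 and HHO1. In this order they differed by 0.07, 0.16, 0.71 and -0.12 in scc2-4. In sth1-3 they differed by 0.43, 0.42, -0.17 and 0.23, and in wild type by 0.06, -0.61, -0.34 and -0.32. In each mutant 8 of 9 histone genes were higher on replicate 1, against 52.8% of all genes in scc2-4 and 58.9% in sth1-3, and 3 of 9 differed by over 1, against 14.2% and 19.4%. In wild type 5 of 9 were higher on replicate 1, against 35.3% of all genes, and 0 differed by over 1 (3.01% of all genes did). Over all 7 arrays, 5 histone genes (HTA1, HTA2, HTB1, HHF1 and HTZ1) were higher in the set of 3 with no overlap, against 21.6% of all genes, and 0 were lower, against 14.0%. HTA2 counts here by its shared probe set, and its own probe set overlapped between the sets.

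Probe sets for the histones of S. pombe, 9 for 7 genes, offer a reference on the same arrays, since no RNA of that species was labelled as present. Their median relative to the wild type 37C mean stayed between -0.093 and 0.28 on all arrays. For budding yeast histone genes it was 0.59 to 0.69 in the set of 3 and -0.026 to 0.12 in the set of 4. Single S. pombe probe sets differed between the set means by -0.62 (htb1) to 0.54 (hta2), less than HHF1 at 2.25, HTA2 at 2.01, HTB1 at 0.95, HTA1 at 0.86 and HTZ1 at 0.85. HHT1 at 0.40, HHT2 at 0.33, HHO1 at 0.04, HTB2 at 0.03 and the own probe set of HTA2 at 0.05 lay within the S. pombe range. The H4 probe sets of S. pombe differed by 0.23 and -0.0061 for hhf1 and by -0.52 for hhf2. The hta1 probe set of S. pombe exceeded background on 6 arrays and that of hta2 on 1, so passing background does not by itself mark a probe set as reading its own transcript.

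**Figure D3:**
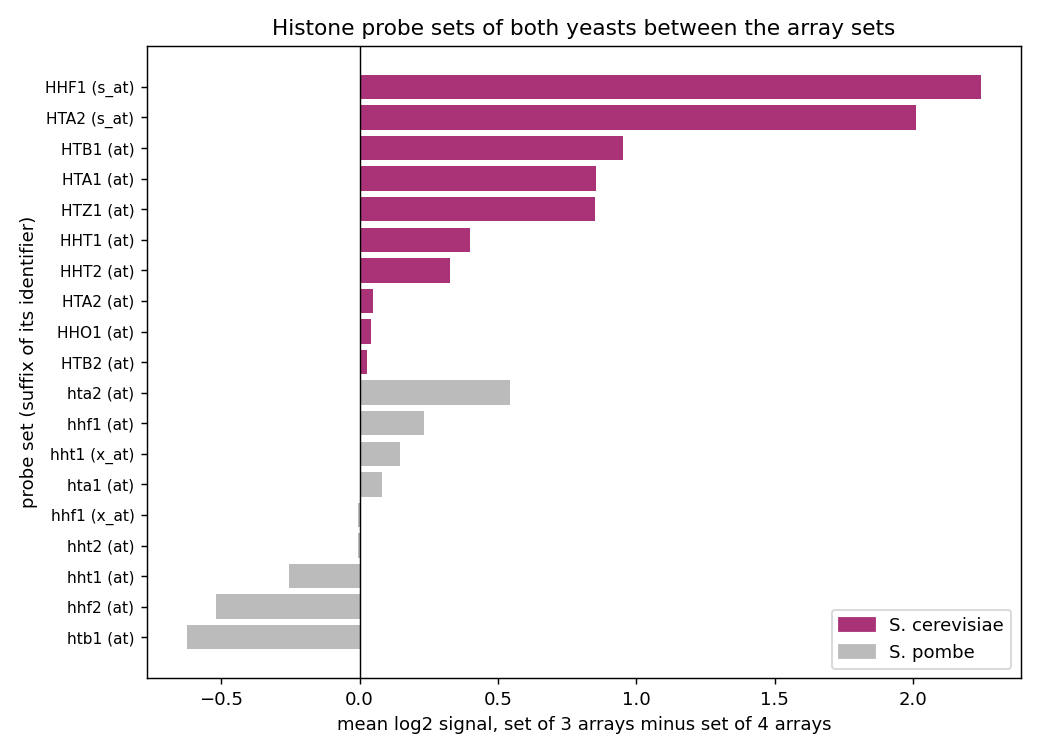
Mean log2 signal over the set of 3 arrays minus that over the set of 4 (x axis) for each histone probe set of S. cerevisiae (purple) and S. pombe (grey), with the suffix of its identifier (s_at and x_at mark probes that match several transcripts). Within the divergent pairs, HTA1 (0.86) and HTB1 (0.95) lie close together, while HHF1 (2.25) and HHT1 (0.40) do not. The HHF1 probe set may also read HHF2. HTA2 lies at 2.01 by its shared probe set and at 0.05 by its own, and its partner HTB2 at 0.03.

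The 9 other lists, of 102 genes with 101 measured, had 0 members called in any of the 4 comparisons. Of the 12 regulators of histone genes, 5 were higher and 7 lower in sth1-3 than in wild type at 37C (median -0.0089), and 8 were higher in scc2-4 (median 0.05). SPT10, an activator of histone promoters, measured 9.04 at 25C, 10.45 ± 0.18 in wild type at 37C, 10.13 ± 0.57 in scc2-4 and 9.41 ± 0.47 in sth1-3. SPT21, which works with SPT10, measured 7.29, 8.92 ± 0.22, 8.23 ± 0.79 and 7.78 ± 1.14 in the same order and was under background throughout. Their differences in sth1-3 against wild type were -1.03 and -1.13 (adjusted p = 0.824 for both, limma). They too moved with the array set: SPT10 measured 9.08 and 9.75 on replicates 1 and 2 of sth1-3, and SPT21 measured 6.97 and 8.59. HIR1, of the HIR repressor complex, was under background on all arrays and differed by 0.75 in that comparison (8.35 ± 0.96 against 7.60 ± 0.39). Its sth1-3 replicates measured 9.03 and 7.67, the second of them inside the wild type range of 7.32 to 7.87. ASF1, a chaperone of H3 and H4, measured 10.03 ± 0.24 in sth1-3 against 10.51 ± 0.08, and YTA7, which acts on histone gene chromatin, 10.05 ± 0.68 against 9.69 ± 0.44.

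Of 17 histone chaperones and assembly factors, 10 were higher in either mutant than in wild type at 37C (medians 0.02 in scc2-4 and 0.03 in sth1-3). CAC2, a subunit of the replication-coupled assembly factor CAF-1, measured 10.72 at 25C, 9.93 ± 0.03 in wild type at 37C, 10.19 ± 0.25 in scc2-4 and 10.25 ± 0.53 in sth1-3. The H3-H4 chaperone gene VPS75 had 9.67 ± 0.17 in sth1-3 and 9.35 ± 0.38 in wild type, and NHP6B, which encodes a DNA-bending protein that aids the chaperone FACT, 9.81 ± 0.12 and 10.12 ± 0.35. Its paralogue NHP6A had 9.18 ± 0.11 and 9.23 ± 0.11. Of 15 genes of H2A.Z exchange, 8 were higher in either mutant (medians 0.07 and 0.01). SWC5, a SWR1 subunit, had the arrays of each mutant far apart (9.93 ± 1.40 in scc2-4 and 10.33 ± 1.44 in sth1-3, against 9.07 ± 0.65 in wild type). SWC4, of the same complex, measured 9.85 ± 0.56, 10.26 ± 0.21 and 10.25 ± 0.38, and VPS72, which binds H2A.Z, 9.92 ± 0.64, 9.61 ± 0.34 and 10.39 ± 0.50.

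CSE4, the centromeric H3 variant, stayed below background on the 7 arrays, with 8.85 at 25C, 8.33 ± 0.55 in wild type at 37C, 8.70 ± 0.15 in scc2-4 and 8.21 ± 0.27 in sth1-3. So did the other 3 genes on its list, the kinetochore gene MIF2, the Cse4 ligase gene PSH1 and the Cse4 chaperone gene SCM3, whose means at 37C lay between 8.64 (SCM3) and 9.47 (PSH1), both in scc2-4. Of 5 genes that set histone levels, 4 were lower in either mutant (medians -0.28 in scc2-4 and -0.20 in sth1-3). RAD53, a checkpoint kinase that also removes excess histones, measured 9.75 ± 0.18 in scc2-4 and 10.13 ± 0.36 in sth1-3, against 10.03 ± 0.48. The nuclear exosome gene RRP6 measured 9.69 ± 0.58 and 10.02 ± 0.27, against 10.22 ± 0.07, and the decay factor gene LSM1 measured 9.76 ± 0.13 and 9.47 ± 0.11, against 10.05 ± 0.20. DNA replication genes, active when core histones are made, had 7 of 26 members higher in scc2-4 (median -0.15) and 12 in sth1-3 (median -0.03). RFA3, of the single-strand binding protein RPA, measured 10.00 ± 0.23 and 10.38 ± 1.02, against 10.19 ± 0.43 in wild type at 37C. For POL1, the catalytic subunit of primase-associated DNA polymerase alpha, the values were 9.81 ± 0.30 and 10.17 ± 0.19, against 9.83 ± 0.27, and for the DNA ligase gene CDC9 9.87 ± 0.13 and 9.96 ± 0.09, against 9.93 ± 0.30. Genes of G2 and mitosis had 3 of 9 members higher in either mutant, with CDC20, an activator of the anaphase-promoting complex, at 9.28 ± 0.05 and 9.19 ± 0.43, against 9.55 ± 0.17. HST3, a histone deacetylase gene, had 8.66 ± 0.70 and 8.53 ± 0.04, against 9.09 ± 0.12, and the kinase gene KIN3 8.70 ± 0.49 and 8.44 ± 0.20, against 8.93 ± 0.20. The whole list was under background.

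**Figure D4:**
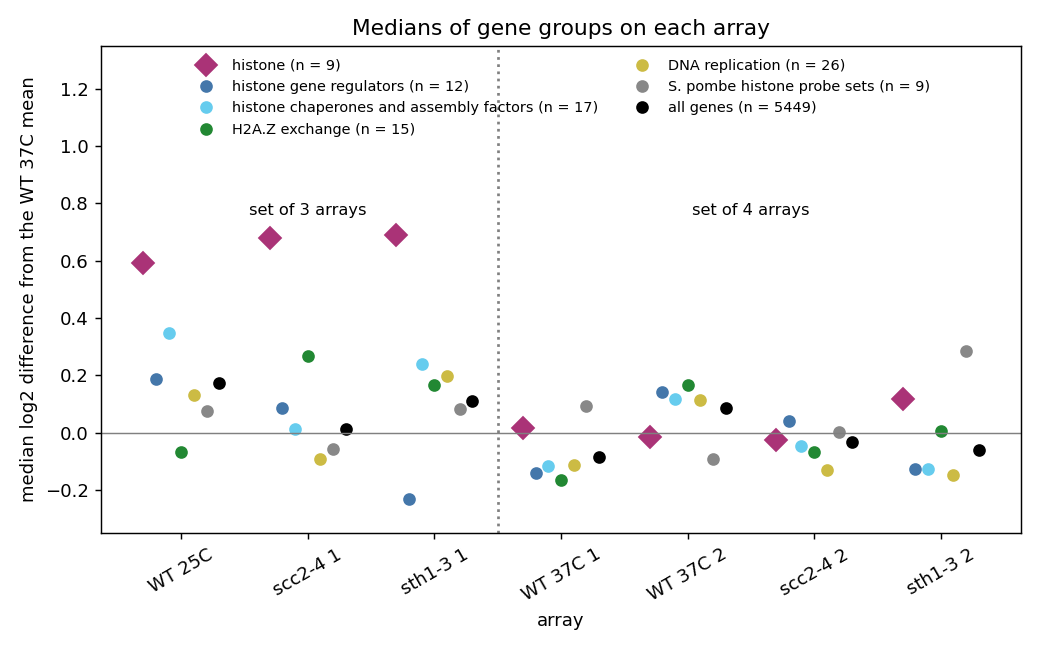
Median log2 difference from the wild type 37C mean (y axis) over the genes of each group on each array (x axis), with the 2 technical sets split by the dotted line; n is the number of genes or probe sets. The histone median lies at 0.59 to 0.69 in the set of 3, while the DNA replication genes lie between -0.15 and 0.20 on all arrays.

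The 5 genes most like the mean of the 9 histone genes over the 7 arrays, out of 903 above background on at least 2 arrays, were RPL24B, RPL23B, RPL40A, RPL21A and ASC1, with Pearson's r of 0.990 to 0.997 as a description. RPL24B, RPL23B and RPL21A encode proteins of the large ribosomal subunit, RPL40A one fused to ubiquitin, and ASC1 a protein of the small subunit. The histone mean was itself 8.88 to 9.14 in the set of 3 and 7.99 to 8.35 in the set of 4. Genes picked for likeness to it therefore had to be higher in the set of 3. This was so for RPL24B with a mean of 11.62 against 10.28 and RPL23B with 10.16 against 7.71. RPL23B, RPL40A, RPL21A and ASC1 also passed the background filter only through the set of 3. The 7 arrays share their split into technical sets, and this likeness was not examined apart from it.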

How the data were processed

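Each of 7 RNA samples was measured on an Affymetrix Yeast Genome 2.0 array. The deposited table gives every probe set a log2 intensity per array. RMA and affy are named, without versions, by the submitters' processing notes, and RMA includes quantile normalization, which could hide a shift shared by most genes. Whether all arrays were normalized together is not given in the sources used here. Scanner files were not used here.

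Of 10928 probe sets, 5498 named an S. cerevisiae gene and 1746 an S. pombe gene, by the platform annotation and the R64 reference genes. Coordinates of the reference genes served only to order them, which gave the divergent pairs. The brightest probe set on average stood for a gene. A fold is given only where a group exceeded background, and as "at least" against a group that did not, using the higher of background and value on each array. The main model gave all 7 arrays 1 mean per group (lmFit and eBayes, limma 3.58.1, R 4.3.3, 3 residual degrees of freedom), two-sided, over the 5449 genes, with a threshold of 0.05 after Benjamini-Hochberg adjustment. The code was tested on simulated data. The labels leave unsaid whether replicates came from separate cultures. The p-values therefore reflect variation among these arrays, possibly technical, and the small number of arrays limits the precision. No 2 arrays held identical values.

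The rule for members uses symbols alone, but the histone genes, the other lists and the tests were chosen with earlier results of these data known. All histone genes are named, and of each other list the called members or otherwise the 3 brightest, plus CSE4, SPT10, SPT21, HIR1, NHP6A and NHP6B. The results of the mating type lists are given as counts above background, with the gene that exceeded it. Alternatives were a replicate block, the array set as a term, the set of 4 alone, eBayes with a trend or robust hyperparameters, dropping dim genes, centring or quantile normalization over S. cerevisiae probe sets, averaging the probe sets of a gene, fitting each comparison on its own groups, and omitting each 37C replicate in turn.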

Additional observations from a re-analysis of the deposited data

How the results depend on the processing

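With 1 or 2 arrays per group and most histone probe sets under background, small differences were not detectable and large ones could be missed. In the main fit HHF1 was not called in sth1-3 against wild type, at 1.64 log2 units (interval -0.13 to 3.41). Of 449 histone gene values under alternatives, 412 kept their direction and side of the threshold, 34 changed sign and 3 passed the threshold. The cause of these changes was not tested. Many of the 412 could not change sign, because the setting leaves the estimate unchanged. This holds for eBayes with a trend or robust hyperparameters, dropping dim genes, and fitting each comparison on its own groups. It also holds for the replicate block in comparisons that involve a mutant, and the array set between the mutants. Averaging probe sets altered only HTA2. The 412 are therefore no measure of robustness. No histone gene was called outside the fit of the wild type arrays alone. That fit has 1 residual degree of freedom and a prior of infinite weight. It called 911 genes, HTA1 (-1.15, adjusted p = 0.0318), HTA2 (-1.88, adjusted p = 0.000128) and HHF1 (-2.56, adjusted p = 3.7e-08, limma) among them.

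The labels name no pairing by replicate number. Deviations of same-numbered arrays correlated at -0.20 for wild type and scc2-4, -0.36 for wild type and sth1-3, and 0.55 for scc2-4 and sth1-3. These values cannot settle whether the design had a pairing. Same-numbered arrays of scc2-4 and sth1-3 share a technical set, while both wild type 37C arrays lie in the set of 4. The replicate block called 1 gene in scc2-4 and 1 in sth1-3 against wild type, and HHO1 in wild type 37C against 25C became -0.023 with it.

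With the array set as a term, the calls rose to 7 genes for scc2-4, 10 for sth1-3 and 4 for wild type 37C against 25C. The prior in that fit had a weight of 105 degrees of freedom, against 5.26 in the main fit, so the calls of these fits are not on equal terms. With the term, the histone median in scc2-4 became -0.061, HTB1 -0.26, HHT1 -0.061 and HTZ1 -0.30. In sth1-3 HTZ1 became -0.20. In wild type 37C against 25C the median became 0.066, HTA2 0.11, HTB1 0.25 and HTZ1 0.56, while HHF1 went from -2.56 to -0.58 and HTA1 from -1.15 to -0.51 (adjusted p = 1.00 for both, limma). In the set of 4 alone, 6 genes were called in scc2-4, 13 in sth1-3 and 1 in sth1-3 against scc2-4. There the scc2-4 median became -0.026, HTB1 -0.16, HHT2 -0.11, HHF1 -0.026 and HTZ1 -0.49, and HTZ1 in sth1-3 -0.0056. Dropping genes that exceeded background on fewer than 2 arrays left HHF1 and HHO1, and the median of wild type 37C against 25C became -1.27. That median rests only on HHF1 (-2.56) and HHO1 (0.01). HHF1 passed the filter only through the set of 3, which holds the 25C array, so the filter itself shaped this value. With both HTA2 probe sets averaged, HTA2 became 0.55 in scc2-4 and 0.79 in sth1-3 against wild type, 0.24 in sth1-3 against scc2-4, and -0.97 in wild type 37C against 25C.

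Leaving out each replicate gave these ranges. For scc2-4 against wild type, 0 to 1 genes were called, and the histone median was -0.026 (without scc2-4 replicate 1) to 0.68 (without scc2-4 replicate 2), HTB1 -0.16 to 0.68, HHT1 -0.22 to 0.39, HHT2 -0.11 to 0.59, HHF1 -0.026 to 2.44, HTZ1 -0.49 to 0.97 and HHO1 -0.23 to 0.089. For sth1-3 against wild type, the median was 0.12 (without sth1-3 replicate 1) to 0.69, HTB1 0.098 (without sth1-3 replicate 1) to 1.346, HTB2 -0.40 to 0.035, HHT1 -0.012 to 0.60 and HTZ1 -0.0056 to 0.69. For sth1-3 against scc2-4, the median was -0.066 (without sth1-3 replicate 1) to 0.68, HTA1 -0.20 to 0.58, HTA2 -0.65 to 1.65, HTB1 -0.16 to 1.08, HHT1 -0.0013 to 0.42, HHT2 -0.026 to 0.68, HHF1 -0.80 to 1.67 and HTZ1 -0.63 to 0.84. For wild type 37C against 25C, HHO1 was -0.15 to 0.17.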
